A study of Homo sapiens with 12 samples.

Results

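The genes described here are 10 members of the NLRP1 inflammasome and of pyroptosis, a lytic form of cell death: NLRP1, CARD8, DPP8, DPP9, PYCARD, CASP1, CASP4, GSDMD, GSDME and IL18. They were chosen by name, with earlier results of these data known, and all 10 were found among the 60617 gene IDs of both count tables, of which 33780 had a count in at least 1 library. NLRP1 itself was picked from those results, so its values are given as a description with no test. RNA was sequenced from 769-P, an established cell line from a human clear cell renal carcinoma. There were 12 libraries in 4 groups of 3, and the labels call these groups siDRAIC-NC, siDRAIC, sihnRNPA2B1-NC and sihnRNPA2B1. An siRNA (small interfering RNA) lowers the RNA it pairs with, here meant for DRAIC, a long non-coding RNA, or for HNRNPA2B1, an RNA-binding protein that acts in splicing and RNA transport. The NC groups were taken as the controls of the siRNA in the same name, and the meaning of the letters, the dose and the time were not stated in the labels. Nothing in the labels says whether the 3 libraries of a group came from separate cultures, so p-values measure the spread between these libraries, which may be technical.

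NLRP1 and CARD8 are sensor proteins that cut themselves and then wait in an inactive form. DPP8 and DPP9, cytosolic peptidases, bind them and hold them back. When the freed C-terminal part of NLRP1 assembles, it recruits the adaptor ASC (the product of PYCARD) and caspase-1, while that of CARD8 recruits caspase-1 directly. Caspase-1 cuts the pore protein gasdermin D and the cytokine precursors of interleukin-18 and interleukin-1β. Caspase-4 senses bacterial lipopolysaccharide in the cytosol and also cuts gasdermin D. Gasdermin E is a related pore protein that is cut during apoptosis. The route is best known in keratinocytes and other barrier cells (NLRP1) and in blood cells (CARD8).

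Library totals ran from 30798303 to 42760528 counts. HNRNPA2B1 measured 419.6 ± 21.0 CPM (counts scaled to the library total; mean ± SD, n = 3) in sihnRNPA2B1-NC and 291 ± 16.7 in sihnRNPA2B1, and fell by 0.56 on the log2 scale (edgeR quasi-likelihood test, Benjamini-Hochberg adjusted p = 2.16e-09). In the siDRAIC experiment HNRNPA2B1 stood higher, at 913, 704 and 721 CPM in siDRAIC-NC and 734, 531 and 728 in siDRAIC. Between the control groups it was called higher in siDRAIC-NC (log2 0.90), and the part of this in the NLRP1 levels was not tested. DRAIC had 2, 1 and 2 counts in siDRAIC-NC and 3, 6 and 0 in siDRAIC. A knockdown was thus not detectable at this depth, and siDRAIC below means the libraries labelled so. All 10 renal carcinoma markers (such as PAX8 and VIM) had counts in every library, summing to 2448 to 3805 CPM. Between the control groups 6 of the 10 were called higher in siDRAIC-NC and 2 lower, where 51.6% of all tested genes were called. CDH6 measured 91.6 to 122 CPM in siDRAIC-NC and 7.39 to 8.83 in sihnRNPA2B1-NC, and VEGFA 67.4 to 91.0 and 461 to 501. Of 10 myeloid markers, TYROBP and AIF1 were at 0 in all 12 libraries, and the list summed to 1.57 to 5.77 CPM. ITGAM made up most of that sum, with 40 to 188 counts in a library, and CSF1R had 1 to 47. The 7 lymphoid markers summed to at most 0.432 CPM and the 5 endothelial markers to at most 0.876 CPM. The 6 fibroblast markers summed to 10.5 to 18.2 CPM in siDRAIC and to 2.65 to 6.59 CPM in siDRAIC-NC, but COL1A1 and PDGFRB made up nearly all of this. COL1A2 and LUM were at 0 in both groups and COL3A1 and DCN at 0 to 4 counts, and the part of these genes in the siDRAIC results was not tested. Of 6 keratinocyte markers, KRT14 and KRT1 were at 0 in all libraries. KRT10 made up nearly all of the list's sum and ranged from 25.6 to 36.1 CPM (siDRAIC-NC), 31.9 to 36.8 (siDRAIC), 57.7 to 64.9 (sihnRNPA2B1-NC) and 46.5 to 54.6 (sihnRNPA2B1). The part of these levels in the NLRP1 values was not tested.

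A pair of libraries stood apart. In sihnRNPA2B1-NC replicate 3, 3 keratinocyte genes that were at 0 to 6 counts elsewhere had 70 (KRT5), 33 (TP63) and 33 (DSG3) counts. Without siDRAIC-NC replicate 1, the genes that passed the test in the siDRAIC comparison went from 114 to 1035. Where leaving out either library changes the call of a member, both values are given below.

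DPP9 and GSDME are the members that passed the test in the sihnRNPA2B1 comparison, and PYCARD is the adaptor that was nearly absent. The 250 bases before their RefSeq start sites (GRCh38.p14, all 3 genes on the minus strand) are shown to set these promoters side by side, printed 5′ to 3′ with CpG dinucleotides in capitals. The positions are chr16:31202761-31203010 for PYCARD, chr7:24757465-24757714 for GSDME and chr19:4723843-4724092 for DPP9, the most upstream of its 5 listed starts.
PYCARD: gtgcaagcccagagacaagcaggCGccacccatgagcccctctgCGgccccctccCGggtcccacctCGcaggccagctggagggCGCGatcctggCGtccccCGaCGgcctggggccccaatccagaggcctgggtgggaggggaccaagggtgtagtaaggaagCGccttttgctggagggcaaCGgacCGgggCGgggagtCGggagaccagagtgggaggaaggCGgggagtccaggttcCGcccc
GSDME: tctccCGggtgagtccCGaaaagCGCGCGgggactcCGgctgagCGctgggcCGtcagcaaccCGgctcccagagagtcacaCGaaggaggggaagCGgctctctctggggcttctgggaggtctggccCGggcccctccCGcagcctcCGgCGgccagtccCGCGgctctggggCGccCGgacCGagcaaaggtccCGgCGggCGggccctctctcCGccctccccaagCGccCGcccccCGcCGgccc
DPP9: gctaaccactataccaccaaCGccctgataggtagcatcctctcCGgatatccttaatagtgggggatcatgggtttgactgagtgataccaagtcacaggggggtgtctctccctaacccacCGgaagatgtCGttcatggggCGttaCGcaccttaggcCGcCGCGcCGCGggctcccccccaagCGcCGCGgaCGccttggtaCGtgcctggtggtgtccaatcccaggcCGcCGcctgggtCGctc
GSDME had 28 CpG, DPP9 19 and PYCARD 16, against a median of 11 over 34788 windows of the same length. As many CpG as in each were found in 15.9%, 34.6% and 40.9% of the windows. The GC box GGGCGG, on either strand, matched 3 times in GSDME and 2 times in PYCARD and not in DPP9, and 42.6% of all windows hold it. The letters CCAAT matched 1 time each in PYCARD and DPP9 (32.0% of windows). TATAAA (10.8%) and the AP-1 letters TGACTCA (4.21%) matched in none of the 3. The matches are a description of these letters.

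**Figure D1:**
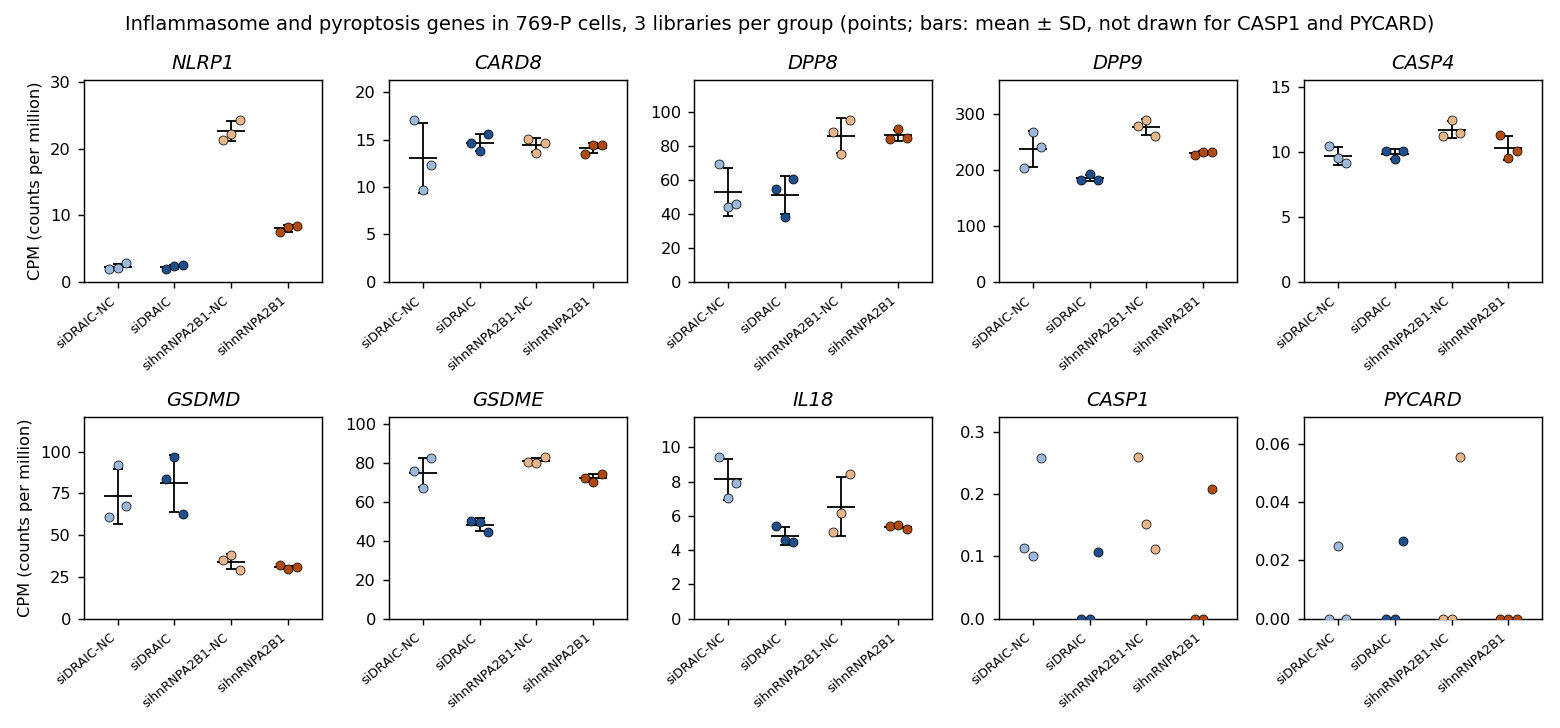
CPM of each of the 10 members (1 panel each, y axis in CPM, linear from 0) in every library of the 4 groups; points are libraries and bars the mean ± SD, not drawn for CASP1 and PYCARD. NLRP1 sits at 21.3 to 24.3 CPM in sihnRNPA2B1-NC, above every library of the other groups, while PYCARD is at or near 0 in all 12.

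NLRP1 (ENSG00000091592, chr17:5499427-5619424 on GRCh38, minus strand) was low in one experiment and higher in the other. It measured 1.87, 2.05 and 2.76 CPM in siDRAIC-NC and 1.88, 2.27 and 2.51 CPM in siDRAIC. In sihnRNPA2B1-NC it measured 21.3, 22.2 and 24.3 CPM, and in sihnRNPA2B1 7.46, 8.18 and 8.39 CPM. Both siDRAIC groups overlapped and lay below all other libraries, and sihnRNPA2B1 lay below sihnRNPA2B1-NC in every library. The means were 22.6 ± 1.51 CPM in sihnRNPA2B1-NC and 8.01 ± 0.490 in sihnRNPA2B1 (SD, n = 3), a 2.88-fold lower level (log2 −1.53, SE 0.10). Fewer cells with the RNA and less RNA per cell cannot be told apart in such bulk libraries. For siDRAIC they were 2.23 ± 0.467 and 2.22 ± 0.318 CPM, with a log2 difference of −0.03 (SE 0.30). The effect of siDRAIC minus that of sihnRNPA2B1 was 1.46 (SE 0.26) on the log2 scale. NLRP1 was 9.99-fold lower in siDRAIC-NC than in sihnRNPA2B1-NC (log2 −3.32, SE 0.19), and here control siRNA and experiment cannot be told apart. Without sihnRNPA2B1-NC replicate 3, which carried the keratinocyte genes, the log2 difference of sihnRNPA2B1 was −1.49. Over all alternatives it ran from −1.57 to −1.48.

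CARD8 (ENSG00000105483, chr19:48180770-48255946, minus strand), the other sensor that DPP8 and DPP9 restrain, had group means between 13.0 and 14.7 CPM. It measured 17.0, 9.72 and 12.3 CPM in siDRAIC-NC, 14.6, 13.8 and 15.6 in siDRAIC, 15.1, 13.6 and 14.6 in sihnRNPA2B1-NC and 13.5, 14.4 and 14.4 in sihnRNPA2B1. The groups overlapped within both experiments. The log2 difference was 0.16 (95% interval −0.31 to 0.64, edgeR adjusted p = 0.850) for siDRAIC and −0.06 (−0.26 to 0.13, adjusted p = 0.665) for sihnRNPA2B1. Its exons share 313 bases with ZSWIM9 on the opposite strand, and no source used here says whether counting used strand. The ratio of CARD8 to NLRP1 per length was 6.04 ± 2.58 in siDRAIC-NC, 6.63 ± 0.928 in siDRAIC, 0.635 ± 0.0585 in sihnRNPA2B1-NC and 1.75 ± 0.0456 in sihnRNPA2B1 (SD, n = 3).

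Of the 9 members besides NLRP1, 7 passed the filter on low counts and were tested, and PYCARD and CASP1 did not. In the siDRAIC comparison none of the 7 was called by edgeR (adjusted p below 0.05), where 0.713% of 15986 genes were called. At an unadjusted p below 0.05, which 10.7% of all tested genes reached, there were 3 (DPP9, GSDME and IL18), all lower in every siDRAIC library than in any control library, and 5.86% of all tested genes were lower in that way. DESeq2 called GSDME and IL18 lower, 2 of the 7, where it called 0.516% of 18212 genes lower. In either direction the replicate block called 2 of the 7, these same genes and both lower, beside 8.78% of 15986 genes in either direction. The share of all genes it called lower is not given. In the sihnRNPA2B1 comparison 2 of the 7 were called, DPP9 and GSDME, both lower, against 30.4% of 15710 genes called and 15.4% called lower. These were also the 2 members whose groups did not overlap, where 18.3% of all genes were lower without overlap. All 7 estimates were below 0, with a median of −0.20 on the log2 scale. The median of the 7 was −0.07 in the siDRAIC comparison, where all tested genes had a median of −0.0046, and that of all genes in the sihnRNPA2B1 comparison was 0.0075. In the difference of the 2 effects edgeR called none of the 7 (0.211% of 17091 genes), DESeq2 none, and 1 (GSDME) had an unadjusted p below 0.05, as did 9.13% of all tested genes.

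**Figure D2:**
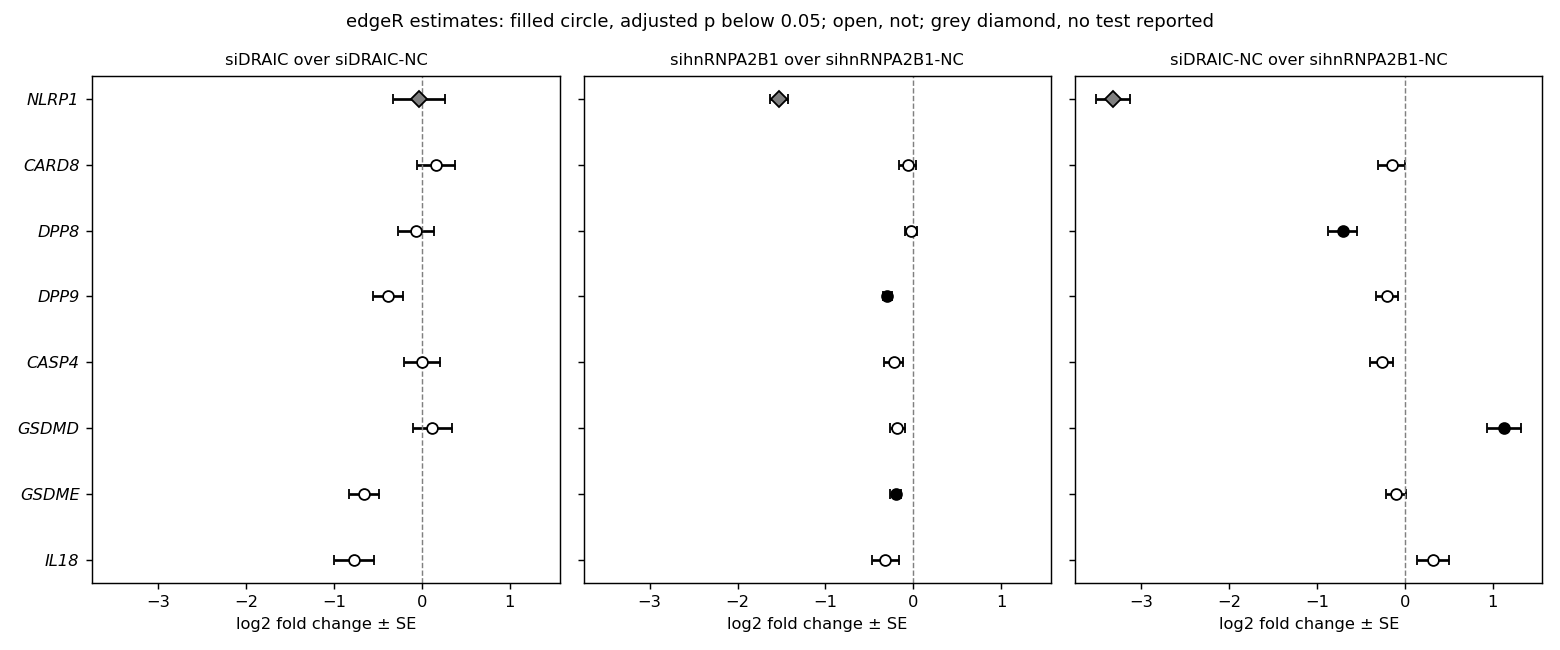
Log2 fold change (x axis, points with bars of ± 1 SE) of the 8 members past the filter in 3 comparisons, on a shared x axis. NLRP1, drawn without a test, lies at −1.53 in the sihnRNPA2B1 comparison, while the other 7 members lie between −0.32 and −0.03 there.

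DPP9 (ENSG00000142002, chr19:4675224-4724673, minus strand), whose promoter is printed above, was the restraining peptidase that passed the test. It measured 279.8, 289 and 261 CPM in sihnRNPA2B1-NC and 227, 232 and 232 CPM in sihnRNPA2B1. Every knockdown library lay below every control library, and DPP9 fell by 0.30 on the log2 scale (SE 0.05, edgeR adjusted p = 9.35e-05). In a fit of all 12 libraries, which share 1 estimate of spread, the call was lost (adjusted p = 0.258). In siDRAIC-NC it measured 204, 267 and 241 CPM and in siDRAIC 181, 192 and 183 CPM. Here too the groups did not overlap, but the difference of −0.39 (SE 0.17, 95% interval −0.75 to −0.02) was not called (edgeR adjusted p = 0.425). Without siDRAIC-NC replicate 1 it was −0.52 and passed (edgeR adjusted p = 0.0388, range over all alternatives 0.0388 to 0.865). The difference between both effects was −0.13 (SE 0.17, edgeR adjusted p = 0.886). The antisense gene DPP9-AS1 overlaps 1528 bases of its exons and had 217 counts in all 12 libraries together.

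DPP8 (ENSG00000074603, chr15:65442463-65517704, minus strand), the close relative of DPP9 with the same restraining role, was not called in either siRNA comparison. It measured 69.0, 43.7 and 45.6 CPM in siDRAIC-NC, 54.5, 38.3 and 60.3 in siDRAIC, 88.2, 74.9 and 95.0 in sihnRNPA2B1-NC and 83.9, 90.0 and 84.7 in sihnRNPA2B1. The siRNA and control libraries overlapped in both experiments, and replicate 1 was the high one in siDRAIC-NC. The log2 difference was −0.07 (95% interval −0.52 to 0.39, edgeR adjusted p = 0.950) for siDRAIC and −0.03 (−0.16 to 0.11, adjusted p = 0.792) for sihnRNPA2B1. Per length, DPP9 exceeded DPP8 by a ratio of 5.87 ± 2.00 in siDRAIC-NC, 4.65 ± 1.31 in siDRAIC, 3.997 ± 0.693 in sihnRNPA2B1-NC and 3.28 ± 0.103 in sihnRNPA2B1 (SD, n = 3).

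The adaptor and the executing caspase of the pathway were scarcely detected. PYCARD (ENSG00000103490, chr16:31201485-31203450, minus strand) had 0, 1 and 0 counts in siDRAIC-NC, 0, 0 and 1 in siDRAIC, 0, 0 and 2 in sihnRNPA2B1-NC and 0 in all 3 sihnRNPA2B1 libraries. A count of 0 allows up to 3 counts, or 0.0702 to 0.0974 CPM depending on the library. PYCARD-AS1 overlaps 991 bases of its exons and had 6 counts in all. CASP1 (ENSG00000137752, chr11:105025443-105035250, minus strand) had 4, 4 and 10 counts in siDRAIC-NC and 0, 0 and 4 in siDRAIC. In sihnRNPA2B1-NC it had 8, 6 and 4 counts and in sihnRNPA2B1 0, 0 and 8. In both experiments replicates 1 and 2 of the siRNA group were at 0 and replicate 3 was not, and the groups overlapped. The summed counts gave a ratio of 0.218 for siDRAIC (4 against 18 counts, exact 95% interval 0.0536 to 0.661) and 0.421 for sihnRNPA2B1 (8 against 18, 0.159 to 1.02). These intervals cover counting error only, and 60.3% of the 91467 counts between 1 and 10 were even where 50% would be if even and odd were alike. With every 2 counts taken as 1, a choice made after seeing the data, the intervals were 0.0229 to 1.05 and 0.0948 to 1.51. CARD16, a neighbour that resembles part of CASP1 and with which reads may be split, had 0 to 4 counts in a library.

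CASP4 (ENSG00000196954, chr11:104942866-104969436, minus strand), the lipopolysaccharide sensor, was not called in either siRNA comparison. It measured 10.4, 9.52 and 9.12 CPM in siDRAIC-NC, 10.1, 9.42 and 10.1 in siDRAIC, 11.2, 12.4 and 11.5 in sihnRNPA2B1-NC and 11.3, 9.50 and 10.1 in sihnRNPA2B1. The groups overlapped in both experiments. The log2 difference for siDRAIC was 0.00 (SE 0.20, edgeR adjusted p = 0.999). For sihnRNPA2B1 it was −0.22 (95% interval −0.45 to −0.003, edgeR adjusted p = 0.119). CASP5, its near copy, was at 0 in all libraries.

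GSDMD (ENSG00000104518), the pore protein that caspase-1 and caspase-4 cut, was not called in either siRNA comparison. It measured 60.8, 91.9 and 67.4 CPM in siDRAIC-NC, 83.7, 96.8 and 62.6 in siDRAIC, 34.9, 37.9 and 29.2 in sihnRNPA2B1-NC and 31.8, 29.7 and 30.7 in sihnRNPA2B1. Within each experiment the libraries overlapped, and those of the siDRAIC experiment all lay higher. The log2 difference was 0.12 (95% interval −0.37 to 0.60, edgeR adjusted p = 0.904) for siDRAIC and −0.18 (−0.35 to −0.008, adjusted p = 0.108) for sihnRNPA2B1. Without sihnRNPA2B1-NC replicate 3 the latter was −0.29 and passed (edgeR adjusted p = 0.00243, range over all alternatives 0.00243 to 0.702).

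GSDME (ENSG00000105928, chr7:24698351-24758113, minus strand), the gasdermin cut during apoptosis, had lower values in every siRNA library than in any control library of the same experiment. In siDRAIC-NC it measured 75.8, 67.2 and 82.4 CPM and in siDRAIC 50.4, 49.9 and 44.6 CPM. In sihnRNPA2B1-NC it measured 80.6, 80.0 and 83.0 CPM and in sihnRNPA2B1 72.4, 70.1 and 74.2 CPM. Its CpG-rich promoter is printed above. The siDRAIC difference was −0.66 (SE 0.17, 95% interval −1.03 to −0.29) and missed the threshold (edgeR adjusted p = 0.119). Blocking on the replicate number left it at −0.66 and brought the edgeR adjusted p to 0.00102, and DESeq2 gave −0.68 (adjusted p = 0.0217). Without siDRAIC-NC replicate 1 it was −0.70 and passed (edgeR adjusted p = 0.0250). Of the 12 alternatives 5 called it, with adjusted p between 0.00102 and 0.542. In the sihnRNPA2B1 comparison GSDME fell by 0.20 (SE 0.06, edgeR adjusted p = 0.00928). Leaving out sihnRNPA2B1 replicate 2 ended that call (edgeR adjusted p = 0.0796), as did the fit of all 12 libraries (0.402). The difference between both effects was −0.49 (SE 0.15, 95% interval −0.82 to −0.16, edgeR adjusted p = 0.285).

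IL18 (ENSG00000150782, chr11:112143251-112164117, minus strand) encodes the cytokine precursor that caspase-1 matures. It measured 9.43, 7.06 and 7.94 CPM in siDRAIC-NC and 5.40, 4.56 and 4.47 CPM in siDRAIC. In sihnRNPA2B1-NC it measured 5.03, 6.15 and 8.45 CPM and in sihnRNPA2B1 5.43, 5.44 and 5.25 CPM. The siDRAIC groups did not overlap, while the sihnRNPA2B1 groups did, with replicate 3 of its control the highest. The siDRAIC difference of −0.78 (SE 0.23, 95% interval −1.27 to −0.29) was not called (edgeR adjusted p = 0.176). Under the replicate block the same estimate, −0.78, had an edgeR adjusted p of 0.00931, and DESeq2 also called it (adjusted p = 0.0418). Its adjusted p over all alternatives ran from 0.00931 to 0.529. For sihnRNPA2B1 the difference was −0.32 (SE 0.15, edgeR adjusted p = 0.114). Without sihnRNPA2B1-NC replicate 3 it was −0.11 (edgeR adjusted p = 0.633), and without replicate 1 of that group −0.47 (adjusted p = 0.0240), the range over all alternatives being 0.0240 to 0.633.

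**Figure D3:**
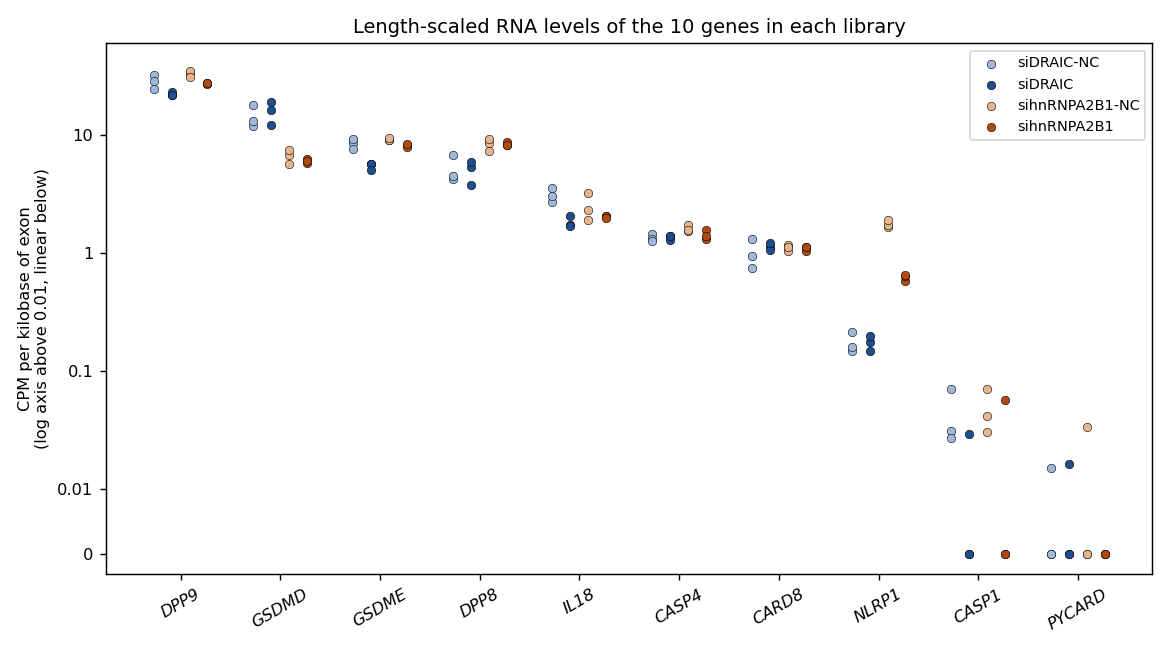
CPM per kilobase of exon (y axis, logarithmic above 0.01 and linear below) of the 10 members in every library, by group. DPP9 is highest in all 4 groups, and NLRP1 moves from 0.174 in both siDRAIC groups to 1.77 in sihnRNPA2B1-NC.

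Per kilobase of exon, DPP9 was the highest member in all groups, at 28.5 ± 3.80 CPM per kb in siDRAIC-NC and 33.2 ± 1.75 in sihnRNPA2B1-NC (SD, n = 3). The length used merges all annotated exons of a gene and can exceed that of the transcripts present. The order of genes and the ratios per length are therefore approximate. In siDRAIC-NC it was followed by GSDMD (14.3), GSDME (8.50), DPP8 (5.17), IL18 (3.10), CASP4 (1.34), CARD8 (1.01), NLRP1 (0.174), CASP1 (0.0425) and PYCARD (0.00503). Among these neighbours only CASP4 and CARD8 overlapped. In siDRAIC the order was the same, with GSDME and DPP8 overlapping, as did CASP1 and PYCARD. In sihnRNPA2B1-NC GSDME (9.18) and DPP8 (8.43) overlapped, as did DPP8 and GSDMD (6.65). NLRP1 (1.77) stood sixth there, overlapping CASP4 (1.62), whereas in sihnRNPA2B1 it was eighth (0.625), apart from CARD8 (1.09) above and CASP1 (0.0187) below. The ratio of GSDME to GSDMD was 0.617 ± 0.168 in siDRAIC-NC, 0.353 ± 0.0570 in siDRAIC, 1.40 ± 0.221 in sihnRNPA2B1-NC and 1.36 ± 0.0425 in sihnRNPA2B1 (SD, n = 3).

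Between the control groups 51.6% of 17091 genes were called, 26.6% higher and 25% lower in siDRAIC-NC. Of the 7 tested members 1 was higher and 1 lower. GSDMD was 2.19-fold higher in siDRAIC-NC than in sihnRNPA2B1-NC (log2 1.13, SE 0.19, edgeR adjusted p = 0.000177). DPP8 was lower by a log2 difference of −0.71 (SE 0.17, edgeR adjusted p = 0.00248). IL18 had a log2 difference of 0.32 (edgeR adjusted p = 0.160) and passed only without sihnRNPA2B1-NC replicate 3 (0.53, adjusted p = 0.0349). DPP9 had −0.20 (edgeR adjusted p = 0.194) and passed only without siDRAIC-NC replicate 2 (−0.33, adjusted p = 0.0379). CARD8 (−0.15), CASP4 (−0.26) and GSDME (−0.10) were not called under any alternative. Of 41 other pathway genes tested, 15 were higher in siDRAIC-NC and 8 lower, among them IL1R2 (log2 2.66), the decoy receptor of interleukin-1, DPP4 (1.75) and IFI16 (−2.05).

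The other genes of the pathway were read from 7 lists of 69 genes. In the siDRAIC comparison 41 were tested and 1 was called, beside 0.713% of all tested genes. In the sihnRNPA2B1 comparison 39 were tested, 7 rose and 6 fell, a share near the 30.4% of all genes called there. Their medians were 0.08 and −0.02 on the log2 scale. In the fit of all 12 libraries DPP4, MAP2K3 and MLKL, 3 of the 13, kept the sihnRNPA2B1 call. Under the replicate block, 7 of the 41 were called in the siDRAIC comparison, 5 higher and 2 lower, beside 8.78% of all genes.

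Of 12 other inflammasome sensors, 2 were tested. IFI16, a nuclear DNA sensor, rose from 166 to 188 CPM in sihnRNPA2B1 (log2 0.15, edgeR adjusted p = 0.0393), a call that 8 of 12 alternatives lost. NLRC4, the partner of the flagellin receptor NAIP, was not called in either siRNA comparison, and NAIP had 0 to 2 counts in a library. NLRP3 had 0 to 10 counts, and NLRP2, NLRP7, NLRP10 and AIM2 were at 0 in all libraries, so beside NLRP1 and CARD8 the sensors with 10 or more counts in every library were IFI16 and NLRC4. Of 11 caspase-1 regulators and partners, 5 were tested and 2 fell in sihnRNPA2B1, where 15.4% of all tested genes were called lower. GBP1, an interferon-induced GTPase that coats bacteria, went from 16.0 to 11.5 CPM (log2 −0.52, edgeR adjusted p = 0.000153). TXN, a thioredoxin that binds NLRP1, had a log2 difference of −0.23 (edgeR adjusted p = 0.00154). Of 5 other gasdermins and NINJ1, which ruptures the membrane of dying cells, 3 were tested and none was called in either siRNA comparison by edgeR without a block. Under the replicate block GSDMB was called higher in siDRAIC (log2 0.93, edgeR adjusted p = 0.0366, range over all alternatives 0.0366 to 0.952). GSDMA and GSDMC were at 0 in all libraries.

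Of 16 genes of the interleukin-1 family, its receptors and adaptors, 9 were tested in the siDRAIC comparison. IL1R1, the interleukin-1 receptor, measured 8.46, 4.86 and 4.48 CPM in siDRAIC-NC and 11.9, 17.4 and 14.8 CPM in siDRAIC. The groups did not overlap, and IL1R1 rose by a log2 difference of 1.31 (SE 0.27, edgeR adjusted p = 0.0488, range over all alternatives 2.77e-08 to 0.298). IL1R1 lost the call without siDRAIC-NC replicate 2 or 3, without siDRAIC replicate 2 or 3, with RLE factors and with the filter of 1 CPM. In sihnRNPA2B1 7 of the list were tested. IRAK1, a kinase below the receptors, fell from 772 to 583 CPM (log2 −0.44, edgeR adjusted p = 2.97e-07). IL18BP, which binds and blocks interleukin-18, rose from 13.8 to 17.2 CPM (log2 0.29, edgeR adjusted p = 0.0156), lost without sihnRNPA2B1 replicate 2 or 3. IL1RAP, the accessory chain of the receptor, also rose (log2 0.34, edgeR adjusted p = 0.0453), a call that 6 of 12 alternatives lost. In the siDRAIC comparison IL18BP was not called (log2 0.57, edgeR adjusted p = 0.245), but it passed under the block (adjusted p = 0.0271) and in the fit of all 12 libraries (0.0219). IL1B, the other cytokine caspase-1 matures, had 0 to 4 counts.

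Of 6 peptidases related to DPP8 and DPP9 or cutting after proline, 5 were tested. DPP4, the cell-surface relative, measured 13.1, 12.3 and 11.8 CPM in sihnRNPA2B1-NC and 26.0, 23.5 and 20.1 CPM in sihnRNPA2B1. These libraries did not overlap, and DPP4 rose by a log2 difference of 0.87 (SE 0.10, edgeR adjusted p = 6.01e-08) while DPP9 fell. In siDRAIC the DPP4 estimate was −0.25 (edgeR adjusted p = 0.710), and the difference between both effects of −1.15 passed (adjusted p = 0.0407), a call that 11 of 17 alternatives lost. Without sihnRNPA2B1-NC replicate 3 that difference was −1.11 (edgeR adjusted p = 0.158). PRCP, a lysosomal peptidase, fell by 0.28 in sihnRNPA2B1 (edgeR adjusted p = 0.0321), a call that 7 of 12 alternatives lost.

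Among 7 genes of the stress kinases and the N-degron ligase upstream of NLRP1, 6 were tested. MAP2K3, which activates p38 kinases, measured 186, 193 and 174 CPM in sihnRNPA2B1-NC and 94.7, 107 and 112 CPM in sihnRNPA2B1. It fell by 0.85 (SE 0.06, edgeR adjusted p = 2.14e-11), with no overlap between the groups. In the siDRAIC comparison MAP2K3 had −0.56 (edgeR adjusted p = 0.359), and passed under the block (−0.51, adjusted p = 0.0109) and without siDRAIC-NC replicate 1 (−0.78, adjusted p = 0.00846). MAP3K20, the kinase ZAKα that senses stalled ribosomes and phosphorylates NLRP1, rose from 97.7 to 116 CPM (log2 0.21, edgeR adjusted p = 0.00954), lost without replicate 2 of either group. UBR2, a ligase of the N-degron pathway, was not called in either siRNA comparison.

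The genes whose log2 CPM followed NLRP1 most closely over the 12 libraries, after centring within each experiment, were ARHGEF37 (r = 0.984), APOBEC3B (0.969), NT5DC3 (0.966), PSMD2 (0.965) and GOLGA3 (0.959). They are the top 5 of 11722 genes of at least 2 CPM, and r is a description over libraries that share group, depth and preparation. Group means were not removed, so the gap of NLRP1 between sihnRNPA2B1 and sihnRNPA2B1-NC enters every r. ARHGEF37 measured 50.2 ± 1.93 CPM in sihnRNPA2B1-NC and 14.7 ± 0.490 in sihnRNPA2B1, against 15.6 ± 2.14 in siDRAIC-NC and 13.8 ± 2.54 in siDRAIC (SD, n = 3). APOBEC3B, a cytidine deaminase, measured 27.5 ± 1.23 and 16.4 ± 1.12 CPM in sihnRNPA2B1-NC and sihnRNPA2B1. Its level in siDRAIC-NC, 60.6 ± 9.25 CPM, was above both, unlike that of NLRP1. PSMD2, a proteasome subunit, measured 676 ± 16.7 and 479 ± 11.6 CPM in the same pair of groups.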

How the data were processed

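The deposited values are raw counts per Ensembl gene in 2 tables, 1 per siRNA experiment. Per the labels' protocols, RNAiso Plus and a TruSeq kit were used. The submitters' processing notes name hg38, STAR 2.7.10a, fastp 0.23.2, DESeq2 and StringTie. No source used here names the read counter, its annotation or its use of strand. Symbols were matched for 60261 of 60617 IDs, and coordinates and exon lengths, with all exons of a gene merged, come from GENCODE 29.

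Each siRNA was compared with its own control group in edgeR 4.0.16 under R 4.3.3: filterByExpr with a minimum count of 10, TMM factors, a robust quasi-likelihood test (two-sided) and Benjamini-Hochberg adjustment over all genes tested, called below 0.05. The difference of the effects and the control groups were tested in a fit of all 12 libraries. The fits of each siRNA against its controls were tested on simulated counts, with a fixed spread and no replicate effect. The fit of all 12 libraries was not. Alternatives were RLE factors, DESeq2 1.42.0, no filter, 1 CPM in 3 libraries, all 12 libraries in 1 fit, a replicate block and leaving out each library. In the siDRAIC experiment same-numbered libraries deviated together (correlations 0.489, 0.227 and 0.277, other pairs −0.409 to 0.103), so the titles' replicate numbers pair them, from the data and not from a stated batch.

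The members and lists were chosen with earlier results of these data known. Named beside the members were up to 3 called genes per list and comparison with the smallest p, and the 5 genes most correlated with NLRP1 (log2 CPM, prior count 2). Promoter windows are from RefSeq, where 6 of the 10 members were matched; the GSDMD sequence was not printed. Some genes of the apoptosis list are not reported here by name.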

Additional observations from a re-analysis of the deposited data

How the results depend on the processing

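Over the alternatives run, the log2 difference of NLRP1 ran from −1.57 to −1.48 for sihnRNPA2B1 and from −0.18 to 0.14 for siDRAIC. It ran from 1.31 to 1.66 for the difference of the effects and from −3.52 to −3.17 between the controls. These ranges describe a gene picked from these same data and lend it no support. In the siDRAIC comparison the members called lower went from 0 to 2 with DESeq2, 2 with the replicate block, 2 with all 12 libraries in 1 fit and 1 with no filter, and from 0 to 2 (without siDRAIC-NC replicate 1) when each library was left out. In the sihnRNPA2B1 comparison 2 became 0 with all 12 libraries and 1 to 3 with a library left out, 1 without sihnRNPA2B1 replicate 2. Between the controls leaving out a library gave 1 to 2 higher and 1 to 2 lower. For siDRAIC, CASP4 turned to −0.016 with RLE factors, −0.020 with DESeq2, −0.022 with no filter and −0.033 with all 12 libraries. With each library left out, values crossed 0 for CASP4 (−0.051 to 0.014), CARD8 (−0.012 to 0.35), DPP8 (−0.20 to 0.12) and GSDMD (−0.070 to 0.32) in the siDRAIC comparison, for DPP8 (−0.11 to 0.039) in the sihnRNPA2B1 comparison, and for DPP8 (−0.20 to 0.12) and DPP9 (−0.27 to 0.0025) in the difference of effects. Over all genes, calls in the siDRAIC comparison went from 114 to 373 with DESeq2, 520 with no filter, 61 with 1 CPM in 3 libraries, 1404 with the replicate block, 665 with all 12 libraries and 9 to 1035 with a library left out. Calls in the sihnRNPA2B1 comparison went from 4781 to 283 with all 12 libraries, and in the difference of effects from 36 to 188 with DESeq2, 263 with no filter, 258 with the replicate block and 9 to 349 with a library left out. The cause was not tested. The sihnRNPA2B1 libraries share only a number (same-number correlations −0.012, −0.024 and −0.046), and the replicate block changed no member's call there or in the difference. Depth limits PYCARD and CASP1, which were below the filter.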

Other observations

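Genes of apoptosis and necroptosis, other forms of programmed cell death, were read from a list of 12, of which 11 were tested. RIPK3, the kinase that phosphorylates MLKL in necroptosis, was at 0 in all 12 libraries. MLKL, the pore protein of necroptosis, measured 11.6, 10.8 and 11.0 CPM in sihnRNPA2B1-NC and 6.14, 6.93 and 6.60 CPM in sihnRNPA2B1. It fell by 0.79 on the log2 scale (SE 0.11, edgeR adjusted p = 4.22e-06), and all 12 alternatives called it. In siDRAIC-NC MLKL measured 19.9, 23.9 and 27.5 CPM and in siDRAIC 14.4, 14.4 and 18.3 CPM. There the groups did not overlap, and the difference of −0.63 was not called (edgeR adjusted p = 0.262). It passed with the replicate block (edgeR adjusted p = 0.0120), without siDRAIC-NC replicate 1 (−0.78, adjusted p = 0.0333) and in the fit of all 12 libraries (adjusted p = 0.0313).

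CASP6, a caspase of apoptosis, rose from 12.9 to 16.5 CPM in sihnRNPA2B1 (log2 0.32, edgeR adjusted p = 0.0207), a call that 5 of 12 alternatives lost. MYD88, the adaptor below the interleukin-1 and interleukin-18 receptors, had 2 to 18 counts in a library, while the kinase IRAK1, which acts after it, had 18014 to 32278.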
